A study of Sus scrofa with 4 samples.

Results

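IGF2BP2, IGF2BP3, HNRNPA2B1 and HNRNPC encode RNA-binding proteins that have been linked to N6-methyladenosine (m6A) without carrying the YTH domain of YTHDF2. They were followed here in follicle granulosa cells of the pig, the somatic cells around the oocyte, after interference with YTHDF2. The genes were chosen by name. Of the 5 names sought, IGF2BP2, IGF2BP3 and HNRNPA2B1 were found as gene names in a table of 20491 genes. HNRNPC was found as 1 further row, listed there under its Ensembl identifier ENSSSCG00000038947, whose description cites the NCBI gene identifier that RefSeq assigns to HNRNPC. IGF2BP1 was not analysed here. All 4 genes passed the filter on low counts and were tested. The 4 RNA-seq libraries formed 2 groups: 2 libraries of granulosa cells transfected with a negative control, and 2 libraries transfected to interfere with YTHDF2, written siYTHDF2. Age and breed of the animals, any BDNF treatment, and whether the 2 libraries of a group came from separate cultures are details that the sources used here leave out, so the p-values cover the spread among these 4 libraries alone, and that spread may be technical.

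The IGF2BP proteins are cytoplasmic RNA-binding proteins with RNA recognition motifs and KH domains. They bind m6A-containing transcripts in mammalian cells and are known for protecting them from decay, whereas YTHDF2 brings methylated transcripts to deadenylation and decay. HNRNPA2B1 and HNRNPC are abundant nuclear proteins of the heterogeneous nuclear ribonucleoprotein (hnRNP) family that package new transcripts and act in splicing. HNRNPA2B1 has also been tied to the processing of primary microRNAs, and both hnRNPs are thought to reach many of their sites where m6A opens the RNA structure. IGF2BP1 and IGF2BP3 are known as oncofetal genes with low transcript levels in most adult tissues, while IGF2BP2 stays expressed.

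IGF2BP2 and HNRNPA2B1 transcripts were called higher with siYTHDF2, by 1.46-fold and 1.21-fold. Neither call held in limma or without replicate 1 of either group. HNRNPC and IGF2BP3 were not called. HNRNPC was measured tightly and lay close to its control level, while IGF2BP3 was so low that its interval covers both a fall and a severalfold rise. The 2 calls among 4 genes stand beside 9.05% of the 15552 tested genes called higher, 10.6% called lower and 19.6% called in either direction at an adjusted p under 0.05 (edgeR quasi-likelihood test, Benjamini-Hochberg over all tested genes). Groups without overlap were common in the same table, at 30.1% of tested genes with both siYTHDF2 libraries above both controls and 30.0% with both below. In bulk RNA, fewer cells of a type and less RNA per cell cannot be told apart.

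**Figure D1:**
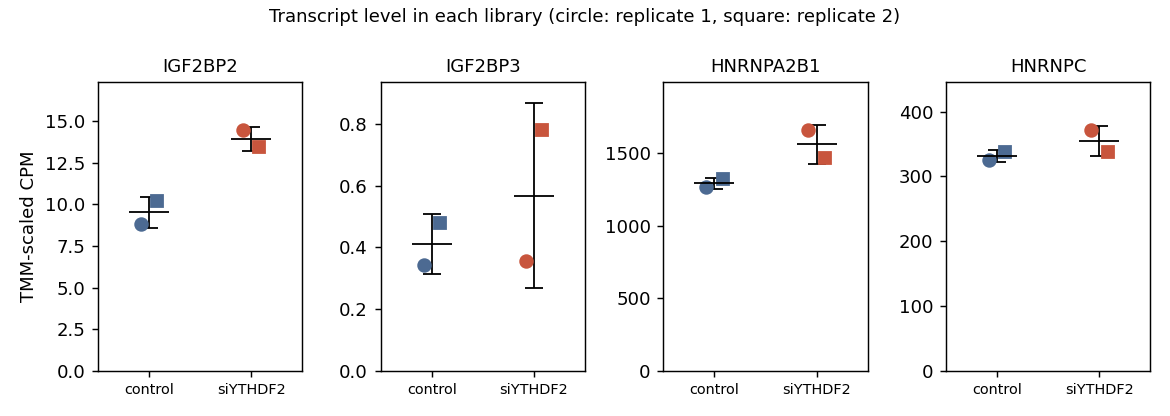
TMM-scaled CPM (y axis, linear, from 0, a separate scale per gene) of IGF2BP2, IGF2BP3, HNRNPA2B1 and HNRNPC in the control and siYTHDF2 libraries. Points are single libraries, the horizontal bar is the mean of 2 libraries and the error bar is the SD. The siYTHDF2 points of IGF2BP2 and HNRNPA2B1 lie above both control points, and those of IGF2BP3 and HNRNPC reach into the control range.

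The targeted gene gave a check of the labels. YTHDF2 stood at 69.5 and 62.1 CPM (counts relative to TMM-scaled library totals) in the controls and at 23.6 and 23.2 CPM after siYTHDF2, and its log2 fold change was -1.49 (SE 0.09). Total counts ran from 47209177 to 54841851 per library. The deposited FPKM values did not follow these totals in one library: relative to control replicate 1, siYTHDF2 replicate 1 had 0.885 of the summed counts of 12083 well-counted genes, but its counts per FPKM unit stood at 1.02. FPKM is therefore used for levels between genes within a library, and counts for differences between groups. As cell type checks, the 17 granulosa markers summed to 3129 to 3357 CPM in the 4 libraries, with FSHR, the receptor of follicle-stimulating hormone, at 10.2 to 11.5 CPM. Most of that sum was the gap junction gene GJA1, at 2106 to 2515 CPM. Of 16 granulosa markers tested, 1 was higher and 1 lower, beside 9.05% of all tested genes called higher and 10.6% lower. The higher one was SERPINE2, a protease inhibitor, at 216 and 224 CPM in the controls and 444 and 424 with siYTHDF2. INHBB, an inhibin and activin subunit, was lower, at 31.8 and 29.0 against 19.2 and 18.4 CPM. CYP19A1, the aromatase of mature granulosa cells, was listed at 0 in 2 libraries and at 0.204 CPM or less in the others. The summed theca and stroma markers moved with the groups: 14 genes summed to 19862 and 20221 CPM in the control and to 10079 and 9892 CPM with siYTHDF2. Most of that sum was ACTA2, at 12147.5 and 12801 CPM in the controls and 6639 and 6286 with siYTHDF2. Of the 14, 8 were called lower, 1 (DES) higher and 5, LHCGR and STAR among them, not called. Over all tested genes 10.6% were called lower and 9.05% higher. The part of the theca and stroma markers in the changes of IGF2BP2 and HNRNPA2B1 was not tested. Endothelial, leukocyte, epithelial and oocyte markers summed to at most 17.2, 8.88, 8.24 and 12.1 CPM. Of these, the endothelial VWF was called higher in edgeR but not in limma on log2(FPKM + 1), with counts of 0 and 0 against 24 and 30, and the epithelial CLDN4 lower, with 11 and 15 against 0 and 0. Their part in the results was not tested either. PTPRC, the pan-leukocyte marker, was at 0 in 1 library of each group, and EPCAM, the epithelial adhesion molecule, at 0 in 3 of the 4 libraries. Other markers of these lists were detected in every library. The leukocyte CD14 stood at 2.99 to 5.39 CPM and the epithelial KRT8 at 4.24 to 6.17. The endothelial PECAM1 stood at 11.9 to 14.5 CPM and the oocyte marker GDF9 at 9.72 to 11.3. These markers therefore do not show that other cell types were absent.

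IGF2BP2 binds insulin-like growth factor and other transcripts and is the IGF2BP gene with the higher level in these cells. The controls held 466 and 551 deposited counts and the siYTHDF2 libraries 688 and 741. In CPM the control libraries stood at 8.85 and 10.2 and the siYTHDF2 libraries at 14.5 and 13.4. Both siYTHDF2 libraries lay above both controls, and the gap between the groups was wider than the gap within either. The means were 9.52 ± 0.953 and 13.9 ± 0.720 CPM (SD, n = 2 each). On the log2 scale the fold change was 0.55 (SE 0.14, 95% interval 0.24 to 0.86, edgeR adjusted p = 0.0236). Of all tested genes, 20.8% had a larger absolute log2 fold change. The call was lost without control replicate 1 (log2 fold change 0.45, adjusted p = 0.105) and, at 0.49, without siYTHDF2 replicate 1 (adjusted p = 0.0953). Limma made no IGF2BP2 call either. With 1 added to each FPKM before the logarithm, its log2 fold change was 0.31 (limma adjusted p = 0.204). With 0.1 added it was 0.45 (limma adjusted p = 0.235). The reason for the missing call in limma was not tested.

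IGF2BP3, the paralog known from fetal tissue and tumours, was barely detected. Counts of 18 and 26 in the controls stood against 17 and 43 with siYTHDF2, or 0.342 and 0.481 against 0.357 and 0.780 CPM. The groups overlapped, since siYTHDF2 replicate 1 lay between the controls. The log2 fold change was 0.47 (SE 0.70, 95% interval -1.10 to 2.04, edgeR adjusted p = 0.707). That interval holds both a fall and a severalfold rise, so these libraries do not settle a direction for this transcript. Without siYTHDF2 replicate 2 the log2 fold change was -0.21. At such low values the deposited counts are also uneven: a count of 4 was met in 682 genes of control replicate 1, while 274 genes had 3 counts and 145 had 5.

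Per length, IGF2BP2 made up nearly all of the measured IGF2BP transcript in every library. Its FPKM was 1.42 and 1.66 in the control and 2.06 and 2.22 with siYTHDF2, against 0.0421, 0.0604, 0.0378 and 0.0988 FPKM for IGF2BP3 in the same order. IGF2BP2 thereby held 97.1% and 96.5% of the summed FPKM of both genes in the control and 98.2% and 95.8% with siYTHDF2. The means of 96.8 ± 0.449% and 97.0 ± 1.73% (SD, n = 2 each) differed by less than the spread within the siYTHDF2 pair (two-sided exact permutation p = 1.0, where 2 against 2 libraries cannot go below 0.333).

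HNRNPA2B1 encodes the hnRNP A2 and B1 proteins, splice forms of one gene. Counts reached 66671 and 71346 in the controls and 78801 and 80778 with siYTHDF2. In CPM the controls stood at 1266 and 1320 and the siYTHDF2 libraries at 1655 and 1464. Both siYTHDF2 libraries were above both controls, with replicate 1 well above replicate 2. The means of 1293 ± 38.4 and 1560 ± 135 CPM (SD, n = 2 each) gave a log2 fold change of 0.27 (SE 0.07, 95% interval 0.10 to 0.44, edgeR adjusted p = 0.0319). Of the tested genes, 46.5% had a larger absolute log2 fold change. Leaving out siYTHDF2 replicate 1 lowered it to 0.17 (adjusted p = 0.284) and leaving out control replicate 1 to 0.24 (adjusted p = 0.125), both without a call. With the replicate number as a block the log2 fold change was 0.27 and the call was lost (adjusted p = 0.0945).

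HNRNPC, which binds uridine tracts in nascent transcripts and measures their length, had 17144 and 18289 counts in the control and 17657 and 18654 with siYTHDF2. In CPM this gave 325 and 338 for the controls against 371 and 338 for siYTHDF2. Replicate 2 of siYTHDF2 lay within the control range, so the groups overlapped. The means were 332 ± 9.12 and 355 ± 23.1 CPM (SD, n = 2 each). The log2 fold change of 0.10 (SE 0.07, edgeR adjusted p = 0.387) had a 95% interval of -0.06 to 0.25, or 0.959-fold to 1.19-fold. Reads of HNRNPA2B1 and HNRNPC can be shared with processed pseudogenes, and the sources used here do not say how such reads were counted.

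Ratios between genes within a library do not depend on how libraries are scaled. Per length, the HNRNPA2B1 transcript was 4.07 and 4.09 times as abundant as HNRNPC in the controls and 4.68 and 4.54 times as abundant with siYTHDF2. The control ratios were nearly equal, and both siYTHDF2 ratios lay above them, a difference of 0.17 in the log2 count ratio. IGF2BP2 against HNRNPC showed a wider gap, with FPKM ratios of 0.0322 and 0.0356 in the control and 0.0460 and 0.0470 with siYTHDF2, a difference of 0.46 in the log2 count ratio. The log2 count ratio of IGF2BP2 to HNRNPA2B1 was higher by 0.28 with siYTHDF2, again with no overlap. The 3 ratios that involve IGF2BP3 overlapped between the groups. Of the 6 pairs compared, the 3 without overlap each had an exact two-sided permutation p = 0.333, the smallest value this test can give with 2 against 2 libraries, and 0.666 adjusted over the pairs. The test therefore could not pass a threshold of 0.05 for any pair, whatever the size of the difference.

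Among the m6A readers as a group, the 4 genes marked both ends of the range of transcript levels. Per length in the control libraries, HNRNPA2B1 was highest at 185 ± 7.28 FPKM, followed by HNRNPC at 45.4 ± 1.68 (SD, n = 2 each). The 5 YTH readers came next, from YTHDC1 at 30.8 FPKM down to YTHDC2 at 4.10, and YTHDC1 and YTHDF3 overlapped each other. IGF2BP2 at 1.54 ± 0.168 FPKM and IGF2BP3 at 0.0513 ± 0.0129 FPKM (SD, n = 2 each) were lowest. With siYTHDF2 the order changed in the middle only, where YTHDF2 moved from rank 5 to rank 7 of 9. IGF2BP2 had 0.132 and 0.169 of the YTHDF2 FPKM in the control libraries and 0.632 and 0.597 of it with siYTHDF2. HNRNPA2B1 had 16.6 and 19.4 times the YTHDF2 FPKM in the control and 64.2 and 57.7 times with siYTHDF2. Over the same groups the mean level of YTHDF2 itself went from 65.8 to 23.4 CPM. Of the 5 YTH readers YTHDF2 was lower, and the other 4 were not called, with log2 fold changes from -0.02 to 0.15.

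**Figure D2:**
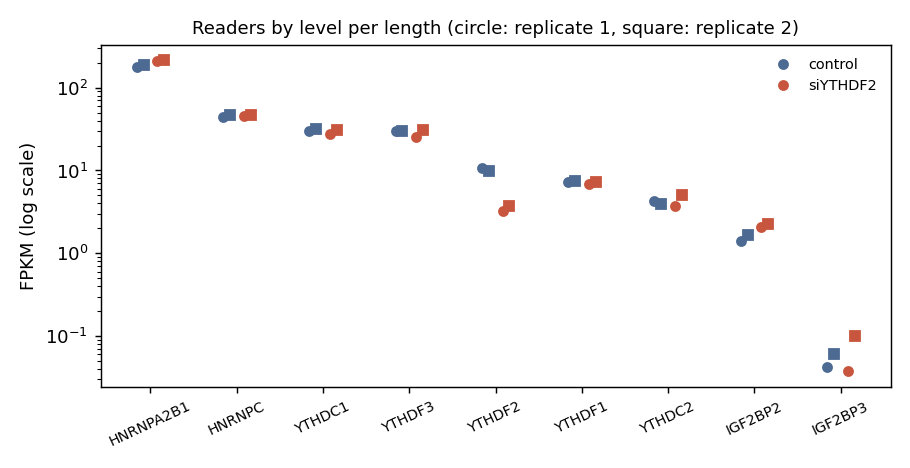
FPKM (y axis, log scale) of 9 m6A readers in each library, ordered by their control mean. HNRNPA2B1 and HNRNPC lie highest and IGF2BP2 and IGF2BP3 lowest in all 4 libraries, and YTHDF2 is the gene whose groups stand farthest apart.

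HNRNPA2B1 was the second most abundant of the 24 hnRNP genes found, per length in the control, overlapping HNRNPK and below its relative HNRNPA1 at 366 FPKM. Of 26 other hnRNP genes sought, 22 were found. HNRNPA0, HNRNPA3, HNRNPF and RBMX were not found under those symbols, so the ranks given here leave them out. Among the 22 other hnRNP genes tested, 4 were higher, 3 lower and 15 not called, beside 19.6% of all tested genes called in either direction. The median log2 fold change was 0.08, against 0.00 over all tested genes. PTBP2, a splicing repressor of the polypyrimidine tract binding proteins, rose by 0.64 (SE 0.12, adjusted p = 0.00705), while its paralog PTBP3 fell by 0.58 in log2 terms (SE 0.07, adjusted p = 0.000652). HNRNPAB, an A/B type hnRNP like HNRNPA2B1, rose by 0.36 (adjusted p = 0.00998), and PCBP1, a poly(C) binding protein, by 0.31 (adjusted p = 0.00984). HNRNPA1 stood at 0.05 (SE 0.07, adjusted p = 0.669), and RALY, the closest relative of HNRNPC in the list, 0.14 (SE 0.08, adjusted p = 0.260). HNRNPA2B1 ranked 4 of 24 by log2 fold change and HNRNPC 13 of 24. Without siYTHDF2 replicate 1 only 1 of the 22 genes was called higher and 1 lower, and without control replicate 1 there were 3 and 1. HNRNPAB and PCBP1 were among the calls lost without siYTHDF2 replicate 1 (adjusted p = 0.0791 and 0.0580).

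**Figure D3:**
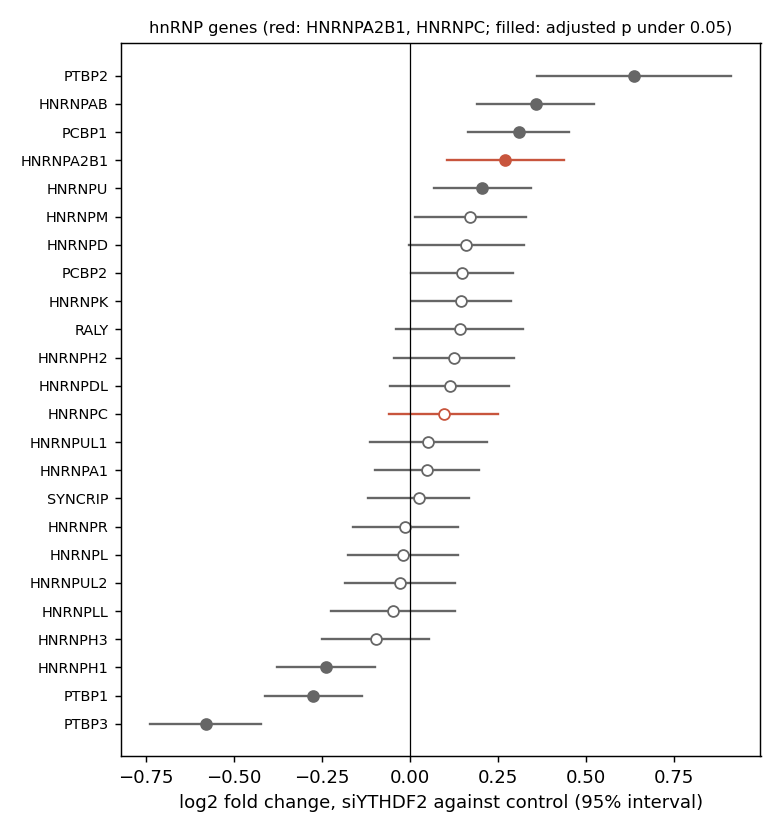
Log2 fold change of siYTHDF2 against control (x axis, points) with its 95% interval from edgeR (lines) for 24 hnRNP genes, sorted by value. HNRNPA2B1 (red, filled) lies at 0.27 among the upper genes, HNRNPC (red, open) at 0.10 with an interval across 0, and PTBP3 at -0.58 and PTBP2 at 0.64 mark the ends.

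Transcripts described as IGF2BP-bound in other cells moved in both directions. Of 21 tested, 4 were higher, 5 lower and 12 not called, with a median log2 fold change of -0.06, beside 9.05% of all tested genes called higher and 10.6% lower. CCND1, which encodes cyclin D1, rose by 1.38 (SE 0.07, adjusted p = 6.91e-06), the chromatin protein HMGA1 by 0.74 (SE 0.09) and the hyaluronan receptor CD44 by 0.51 (SE 0.07). CTNNB1, which encodes beta-catenin, fell from 1435 ± 33.9 to 1085 ± 44.6 CPM (SD, n = 2 each), by 0.40 on the log2 scale. MYC, a transcript whose coding region is bound by IGF2BP proteins in human cells, was at 0.06 on the log2 scale (SE 0.09, adjusted p = 0.748). IGF2, after which the IGF2BP family is named, was counted 9 and 0 times in the controls and 0 and 3 times with siYTHDF2, too low to test. The same holds for LIN28B, a repressor of let-7 microRNAs, with 4 counts in 1 library. Without control replicate 1, and likewise without siYTHDF2 replicate 1, 3 of these transcripts were higher and 1 was lower.

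Among genes whose proteins act with the IGF2BPs, 2 of 13 were higher and none lower (median log2 fold change 0.03), beside 9.05% higher and 10.6% lower over all tested genes: PABPC4, a cytoplasmic poly(A) binding protein, at 0.24 (adjusted p = 0.0362), and HNRNPU at 0.20 (adjusted p = 0.0435). HNRNPU is also on the hnRNP list. Neither call survived without control replicate 1, without control replicate 2 or without siYTHDF2 replicate 1, where none was called. Without siYTHDF2 replicate 2, 1 of the 13 was called, PABPC4. ELAVL1, which encodes the RNA stabilizer HuR, stood at 0.09 (SE 0.07, adjusted p = 0.389). Of 8 genes of microRNA processing that could be tested, among them partners of HNRNPA2B1, 1 was higher and 2 lower (median -0.02), beside 19.6% of all tested genes called in either direction. XPO5, the nuclear exporter of microRNA precursors, fell from 344 ± 13.9 to 209 ± 7.06 CPM (SD, n = 2 each, log2 fold change -0.72, adjusted p = 0.000136). PRKRA, a partner of Dicer, fell by 0.65 on the log2 scale, and AGO2, the slicing Argonaute, rose by 0.37. The AGO2 call was lost without siYTHDF2 replicate 2 (adjusted p = 0.0751). DGCR8, through which HNRNPA2B1 is thought to recruit the microprocessor, lay at 0.02 (SE 0.07, adjusted p = 0.906).

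Other RNA-binding proteins proposed to respond to m6A had 5 higher and 1 lower of 15 tested members, beside 9.05% and 10.6% over all tested genes, with a median log2 fold change of 0.09. In limma on log2(FPKM + 1), which called 582 genes higher and 1537 lower in all, 0 of the 15 were called in either direction, and 0 had an unadjusted p under 0.05. The same fit called 1 higher and 1 lower of the 22 other hnRNP genes and 0 of the 13 IGF2BP partner genes (0 at an unadjusted p under 0.05). Of the 14 writers and erasers it called 0 higher and 1 lower (1 and 1 at an unadjusted p under 0.05). These calls depended on the scaling of the FPKM values. Limma on quantile-normalized log2(FPKM + 1) called 1057 genes higher and 1233 lower in all. Of the 15 it called 4 higher and 0 lower, and of the 22 other hnRNP genes 3 higher and 3 lower. Of the 13 partner genes it called 0, and of the 14 writers and erasers 2 higher and 1 lower. EIF3A, a scaffold subunit of translation initiation factor 3, rose by 0.33 (SE 0.06, adjusted p = 0.00562), the ATPase ABCF1 by 0.34 (SE 0.07) and FXR1, a relative of the fragile X protein, by 0.30 (SE 0.07). EIF3B, a further subunit of that factor, rose by 0.28. The EIF3A call held whichever library was left out. That of ABCF1 was lost without siYTHDF2 replicate 1 (adjusted p = 0.0546), that of FXR1 without replicate 1 of either group (0.0723 for control, 0.0971 for siYTHDF2), and that of EIF3B without control replicate 1 (0.0960) or siYTHDF2 replicate 2 (0.106). Counts fell to 2 higher and none lower without control replicate 1 and without siYTHDF2 replicate 1, and to 3 and none without siYTHDF2 replicate 2. The m6A writers and erasers had 3 higher and 1 lower of 14, with a median of 0.13, where 19.6% of all tested genes were called in either direction. METTL16, a methyltransferase of structured RNAs, rose by 0.55 (SE 0.10, adjusted p = 0.00582), RBM15B, an adaptor of the writer complex, by 0.33, and METTL3, its catalytic subunit, by 0.30 (adjusted p = 0.0483). FTO, a demethylase, fell by 0.46 (SE 0.11, adjusted p = 0.0196). The METTL16 call held whichever library was left out, and the METTL3 call was lost in each case (adjusted p = 0.0618 to 0.199). The FTO call was lost without control replicate 2 (0.0930) or siYTHDF2 replicate 1 (0.0627), and the RBM15B call held only without control replicate 2. The count of higher genes in this list was 1 without control replicate 1, without siYTHDF2 replicate 1 and without siYTHDF2 replicate 2. That of lower genes was 2 without control replicate 1 and 0 without control replicate 2 or without siYTHDF2 replicate 1.

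The 4 genes share annotation but not location. In the deposited table all 4 carry the GO terms RNA binding, nucleic acid binding and nucleus. Of 13828 genes with GO terms, 7 carry the term for binding of m6A-containing RNA, and IGF2BP2, IGF2BP3 and HNRNPA2B1 are among them, with YTHDF1, YTHDF3, YTHDC1 and YTHDC2. HNRNPC does not carry it. IGF2BP2 and IGF2BP3 share the terms for P-bodies, cytoplasmic stress granules and coding-region-mediated mRNA stabilization, the last held by 6 genes.

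Coordinates are printed as deposited, in a build that the sources used here do not state. IGF2BP2 (ENSSSCG00000011795) lies on chromosome 13 from 123485863 to 123650039 on the minus strand and IGF2BP3 (ENSSSCG00000036695) on chromosome 9 from 92104848 to 92272211, also on the minus strand. HNRNPA2B1 (ENSSSCG00000036350) lies on chromosome 18 from 46205447 to 46215856 and HNRNPC on chromosome 7 from 77921146 to 77969902, both on the plus strand. The IGF2BP genes are long, with spans of 164177 and 167364 bases, against 10410 bases for HNRNPA2B1 and 48757 bases for HNRNPC. No other gene of the table overlaps any of them. CBX3, which encodes a heterochromatin protein, starts on the opposite strand 906 bases from the start of HNRNPA2B1, and the pair points away from each other. CBX3 was not called, at 94.6 and 105 CPM in the control and 93.6 and 87.3 CPM with siYTHDF2 (log2 fold change -0.15, SE 0.08, adjusted p = 0.241). SENP2, a SUMO protease gene whose end faces the end of IGF2BP2 across 13936 bases, rose by 0.33 (SE 0.08, adjusted p = 0.0160), a call lost when control replicate 1 (adjusted p = 0.0511) or siYTHDF2 replicate 2 (adjusted p = 0.0966) was left out. MALSU1, a mitochondrial ribosome assembly factor, ends 204 bases from the end of IGF2BP3 on the opposite strand at 9.49 to 12.7 CPM. Whether strand was used in counting is not given, so reads of MALSU1 that run past its annotated end cannot be told apart from the few counts of IGF2BP3.

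Genes with the most similar profile over the 4 libraries were taken by the smallest root mean square difference of centred log2 CPM, among genes with a name and a mean within 1 log2 unit. For IGF2BP2 these were EXOSC8, a subunit of the RNA exosome, DHRS7 and WRAP53, a telomerase and Cajal body protein, at differences of 0.0124 to 0.0248 among 2946 genes. EXOSC8 stood at 14.0 and 15.8 CPM in the control and 22.7 and 21.3 CPM with siYTHDF2, and all 3 were called higher. The WRAP53 call was lost without control replicate 1 (adjusted p = 0.0547). For HNRNPA2B1 they were RACK1 and RPS2, both of the small ribosomal subunit, and the tubulin TUBA1A, at 0.0206 to 0.0362 among 130 genes. RACK1 and RPS2 were called higher (log2 fold changes 0.25 and 0.26) and TUBA1A was not (0.21, adjusted p = 0.0605). As with HNRNPA2B1, siYTHDF2 replicate 1 was the highest library for all 3, and the RACK1 and RPS2 calls were lost without it (adjusted p = 0.256 and 0.288) and without control replicate 1 (0.108 and 0.213). The RACK1 call was also lost without control replicate 2 (adjusted p = 0.0578). HNRNPC was nearest to TRA2B, an SR-like splicing factor, with TTLL3 and SELENOF next, at 0.00644 to 0.0118 among 859 genes, none of them called. IGF2BP3 was nearest to KLHL31, IRX1 and NME5 at 0.0599 to 0.102, all under 1 CPM and not called. With 4 libraries many profiles look alike, and these distances are a description only. The genes were picked for likeness over these same libraries, so a shared direction, highest library or call follows from that choice.

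The change of each gene was followed through 14 other settings. IGF2BP2 had a positive log2 fold change in all 14, from 0.31 to 0.65, and was called in 9. HNRNPA2B1 was positive in all 14, from 0.17 to 0.35, and called in 8. HNRNPC stayed between 0.02 and 0.16 with no call, and IGF2BP3 ran from -0.21 to 0.91 with no call.

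**Figure D4:**
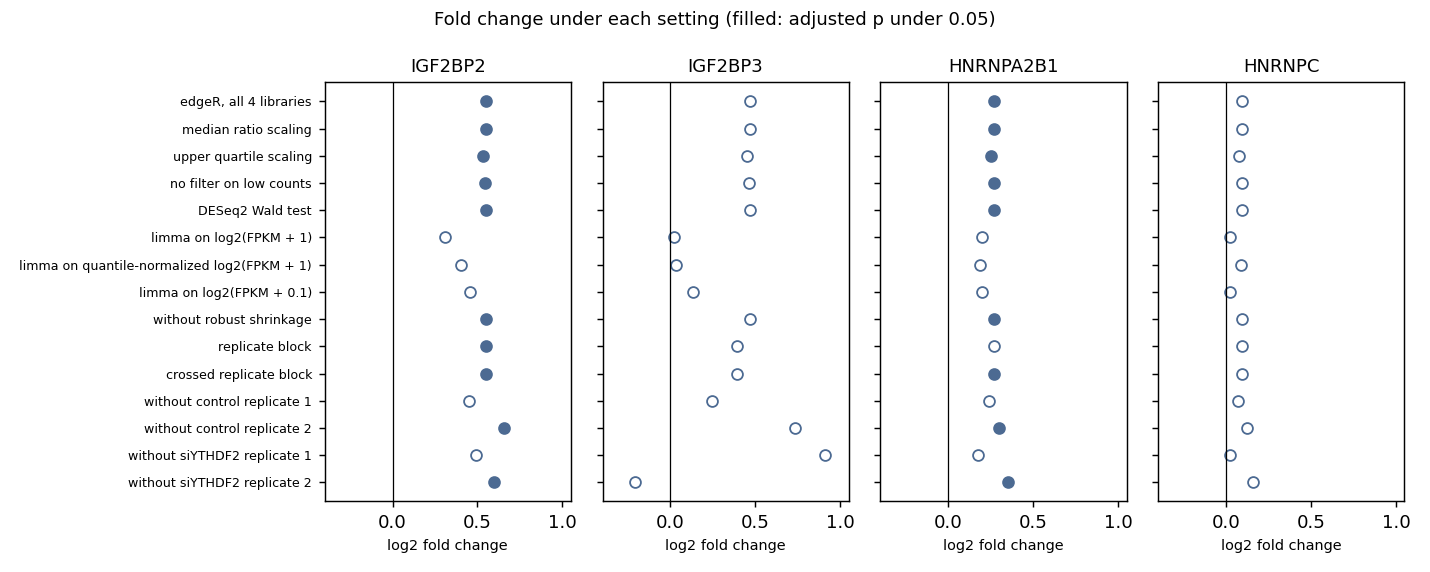
Log2 fold change of siYTHDF2 against control (x axis) for the 4 genes under the reported fit and 14 other settings (rows), filled where the adjusted p is under 0.05. IGF2BP2 and HNRNPA2B1 stay right of 0 in every row but lose their fill in all 3 limma rows and without replicate 1 of either group (HNRNPA2B1 also with the replicate block), and IGF2BP3 crosses 0 without siYTHDF2 replicate 2.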

How the data were processed

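The authors deposited 1 table with counts and FPKM per gene and library, per the file headers. Per the labels' protocols, Trizol served for extraction and an Illumina TruSeq RNA kit for library construction. Bowtie 0.12.2 and a mouse build appear in the submitters' processing notes, while the identifiers are those of the pig, so aligner, build, annotation and counting mode are taken as not stated. Symbols came from the table for 14056 genes, from an Ensembl name table for 124 and from NCBI gene identifiers cited in the descriptions for 101, among them HNRNPC. Counts were tested with edgeR 4.0.16 in R 4.3.3 (expression filter, TMM, robust two-sided quasi-likelihood test, group as the only term, Benjamini-Hochberg over 15552 genes, threshold 0.05), with limma 3.58.1 and DESeq2 1.42.0 as alternatives. The fit was tested on simulated data. SE is the log2 fold change divided by the root of F. Replicates were kept apart: their chi-square per degree of freedom was 16.7 in the control and 16.6 in the siYTHDF2 pair. All 5 names, YTHDF2, up to 4 called genes of smallest p per list and the 3 most similar profiles per gene were to be named. Other named genes (the neighbours, HNRNPA1, RALY, MYC, IGF2, LIN28B, ELAVL1, DGCR8 and the cell markers) were chosen after their values were seen. The genes and lists were chosen with earlier results of these data known. Of 10 gene pairs planned, 6 could be compared.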

Additional observations from a re-analysis of the deposited data

How the results depend on the processing

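The number of genes called higher, 1408 of 15552, was 582 in limma on log2(FPKM + 1) and 791 to 1287 when single libraries were left out (879 without control replicate 1, 791 without siYTHDF2 replicate 1). In limma the IGF2BP2 call was lost on log2(FPKM + 1) (log2 fold change 0.31), with quantile normalization (0.40) and on log2(FPKM + 0.1) (0.45), and the HNRNPA2B1 call at 0.20, 0.19 and 0.20. The median log2(FPKM + 1) of tested genes was 2.22 in siYTHDF2 replicate 1 and 2.38 to 2.40 in the other 3 libraries. With quantile normalization limma called 1057 genes higher. With single libraries left out, the log2 fold change was 0.45 to 0.65 for IGF2BP2, 0.17 to 0.35 for HNRNPA2B1 and -0.21 to 0.91 for IGF2BP3. The IGF2BP2 share moved by -1.06 to 1.40 percentage points. The change of the log2 ratio was -0.44 to 0.79 for IGF2BP2 against IGF2BP3, -0.54 to 0.76 for IGF2BP3 against HNRNPA2B1 and -0.34 to 0.92 for IGF2BP3 against HNRNPC. Among genes named beside the members, none of them called, the sign turned once each for KLHL31 (-0.20 to 0.99), IRX1 (-0.16 to 0.98), NME5 (-0.0903 to 1.03), MALSU1 (-0.0439 to 0.30) and RPGRIP1 (-0.80 to 0.30). The cause was not tested for any of these. With the replicate number as a block, 1020 genes were higher and 1361 lower, and the HNRNPA2B1 call was lost (0.27). Same-numbered libraries deviated in opposite directions (r = -0.25 over 12661 genes), and the labels state no shared batch. A crossed pairing, chosen after the data were seen, called 1946 higher and 1996 lower genes. IGF2BP3 rested on 17 to 43 counts per library.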
